A study of Mus musculus with 9 samples.

Results

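Regional patterning transcription factors were followed in single cells of ZFTA-RELA ependymoma and of control mouse brain. The set holds 9 genes, Emx1, Emx2, Lhx2, Otx1, Otx2, Pax6, Lmx1a, Lmx1b and En2, among 32285 mouse genes in the feature lists. The genes were taken by symbol, each symbol matched 1 row, and the rule uses no measured value. Tumors came from 5 EPZFTA-RELA mice, whose genotype label reads NestinCreERT2;Fus1. Brain came from 4 control mice of genotype NestinCreERT2;TdT, so both groups carry the Nestin-CreERT2 allele. A red reporter is named in the genotype of the controls only, although the study's methods describe red fluorescence of tumors as well. All mice were 6 to 8 weeks old. Nestin-driven Cre switches on the fusion, which is followed by an IRES and luciferase, in radial glia of the embryo, so the tumors start from cells in which Nestin was active. Dissociated cells were stained with DAPI and for Ter119, an erythroid surface protein, sorted, and profiled as 5′ droplet libraries in which each unique molecular identifier (UMI) stands for 1 captured transcript.

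The vertebrate neural tube is divided along its length into forebrain, midbrain, hindbrain and spinal cord, and each territory is marked by its own combination of homeodomain transcription factors. Emx1, Emx2, Lhx2 and Pax6 pattern the dorsal forebrain, Otx1 and Otx2 mark forebrain and midbrain and set the border with the hindbrain, and En2 marks the midbrain and anterior hindbrain. Lmx1a and Lmx1b are LIM homeodomain factors of the roof plate and of midbrain and hindbrain progenitors and neurons. Supratentorial ependymomas, the tumors in which ZFTA-RELA is found, arise in the forebrain.

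After filtering, 20405 control cells and 15916 tumor cells were kept, with 13764489 to 21730245 UMIs per control mouse and 5902884 to 37630780 per tumor mouse. Levels are given as CPM, the UMIs of a gene scaled to the total UMIs of the cells summed. Neuron-like cells made up 82.2 to 84.7% of kept control cells and 0 to 37.5% of kept tumor cells, whereas progenitor-like classes made up 0.864 to 1.37% and 12.4 to 85.7%. Progenitor-like here covers radial glia-like, mixed neural progenitor, cycling-like, neuroblast-like and oligodendrocyte precursor-like cells. In controls most of these were oligodendrocyte precursor-like. The tumor share of neuron-like cells rests largely on 1 cluster, with 814 of the 2366 cells of tumor replicate 1, and at resolution 0.5 a cluster with 810 cells of that tumor was named endothelial-like (mean log2 marker score 1.31, against 1.28 for glutamatergic neurons). A cell was called allele-positive if it held at least 1 UMI of the fusion, luciferase or IRES sequence. This gave 83, 986, 103, 3803 and 1239 cells in tumor replicates 1 to 5. The fusion and luciferase sequences had 0 UMIs in all 4 controls and the IRES had 12, in 12 of the 20405 control cells. The red reporter had 0 UMIs in all 5 tumors. The 10 neuron markers summed to 565.7 to 2108 CPM in tumors and 4400 to 4948 CPM in controls, and 4 of the 10 fell and 0 rose. The 9 cycling markers summed to 204.5 to 1286 CPM against 19.3 to 27.1 CPM, and 9 of 9 rose. Of 9 radial glia markers 8 rose (1465 to 3199 against 812.4 to 855.7 CPM), and of 9 microglia markers 8 rose (2265 to 10963 against 556.5 to 664.1 CPM). Of 9 astrocyte markers 7 rose (1533 to 4776 against 1518 to 1579 CPM). The part of this change in cell make-up in the whole-sample differences below was not tested, and in sums over cells fewer cells of a type and less RNA per cell cannot be told apart.

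Tumor and control mice were first compared over all kept cells. Lmx1b, Otx1 and Pax6 rose and En2 fell. Emx1, Emx2, Lhx2 and Otx2 did not pass the test, and Lmx1a was below the count filter. The fit called 61.6% of 17603 genes, 32.3% higher and 29.3% lower in tumors, so 4 calls among 8 tested genes is not a larger share than that of all genes. The median log2 fold change was 0.787 over the 8 genes and 0.0432 over all genes tested. Differences were tested with edgeR's quasi-likelihood test on sums per mouse with Benjamini-Hochberg adjustment over all genes, and the p-values measure the spread between these mice.

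Lmx1b, which patterns roof plate and serotonergic and dopaminergic progenitors, showed the largest difference of the 8. It stood at 0.654, 0.558, 0.252 and 0.506 CPM in control replicates 1 to 4, which is 4 to 12 UMIs per mouse. Tumor replicates 1 to 5 had 13.6, 25.6, 7.53, 58.5 and 65.2 CPM. The groups did not overlap, and the lowest tumor lay above the highest control by more than the whole control range. The log2 fold change was 6.44 ± 0.856 (SE), with an adjusted p of 0.000347 in edgeR's test. With 4 to 12 UMIs per control mouse Lmx1b passed the count filter on tumor counts. The call is therefore no separate support beside the levels above.

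Lmx1b lies on chromosome 2 from 33560965 to 33640511 on the minus strand (GRCm38, GENCODE vM21). Over 72 sums of UMIs per mouse and cell class, the gene with the pattern most like it was C130021I20Rik (Pearson r = 0.95 of log2(CPM + 10)), a non-coding antisense gene on chromosome 2 from 33641193 to 33646354 on the plus strand. Its RefSeq start lies 95 bases from that of Lmx1b, on the other strand. It measured 0.252 to 0.799 CPM in controls and 16.8, 26.4, 9.52, 58.1 and 72.5 CPM in tumor replicates 1 to 5, a log2 fold change of 6.2 ± 0.807 with an adjusted p of 0.000323 in edgeR's test. The 5 tumors ranked in the same order by both genes. C130021I20Rik was picked from 13753 genes by its likeness to Lmx1b in these same data. With 4 to 16 UMIs per control mouse it also passed the count filter through the tumors. Its rise and this order are therefore no separate support. Smim40 and Vax2, the latter a ventral eye and forebrain homeodomain factor, followed with r = 0.91 each. These sums share libraries, so r is a description. The other genes lie, on the same build, at chr1:167689237-167848741 (Lmx1a), chr2:38339281-38369733 (Lhx2), chr2:105668900-105697364 (Pax6), chr5:28165694-28172166 (En2), chr6:85187438-85204462 (Emx1), chr11:21994764-22002897 (Otx1), chr14:48657677-48673819 (Otx2) and chr19:59458372-59465357 (Emx2). Lmx1b overlaps Gm38011 on the other strand by 279 bases and En2 overlaps Gm43610 by 365 bases. Lhx2, Pax6, Emx2 and Otx2 also overlap genes on the other strand (Gm13584 and Gm27197, Pax6os1, Emx2os and Otx2os1), and whether the counting used strand is not given in the sources used here.

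Promoter windows of RefSeq (GRCm38.p6, 250 bases before each start) were read for the 7 of 9 genes that matched, 12 windows in all, because RELA is a subunit of NF-kB. The NF-kB consensus, searched on both strands, was found in 3 windows, of Lmx1b, Lhx2 and Pax6, and in 3.9% of 32851 windows of all genes. TAATTA, a homeodomain core searched on both strands, was found in 4.84% of all windows and among these genes in Otx2 windows only. The Lmx1b window, shown because its match is shared with the window before C130021I20Rik and part of which lies in an exon of that gene, and the first Pax6 window are printed 5′ to 3′ with the matches to the NF-kB consensus in capitals. A match is a description of letters, and binding was not measured here.
Lmx1b, chr2:33641099-33641348, minus strand: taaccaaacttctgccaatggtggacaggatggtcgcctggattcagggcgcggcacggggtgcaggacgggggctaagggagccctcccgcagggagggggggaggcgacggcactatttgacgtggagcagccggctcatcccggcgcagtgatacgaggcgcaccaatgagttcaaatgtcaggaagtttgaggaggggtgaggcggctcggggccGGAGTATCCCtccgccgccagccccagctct
Pax6, chr2:105668646-105668895, plus strand: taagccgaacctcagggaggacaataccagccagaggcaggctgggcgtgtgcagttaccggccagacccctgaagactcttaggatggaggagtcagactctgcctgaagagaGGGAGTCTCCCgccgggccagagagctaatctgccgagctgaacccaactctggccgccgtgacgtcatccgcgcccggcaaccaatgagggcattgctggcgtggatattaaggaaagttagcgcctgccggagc
In the Lmx1b window the match GGAGTATCCC lies at chr2:33641120-33641129, and the same bases fall within the window before C130021I20Rik. In the Pax6 window 2 matches overlap by all but 1 base. In Lhx2 the match GGAGACCCCC lies at chr2:38351269-38351278 before the second of 2 RefSeq starts, and the first had none. The windows of Emx1, Emx2, Otx2 and Lmx1a held no match.

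**Figure D1:**
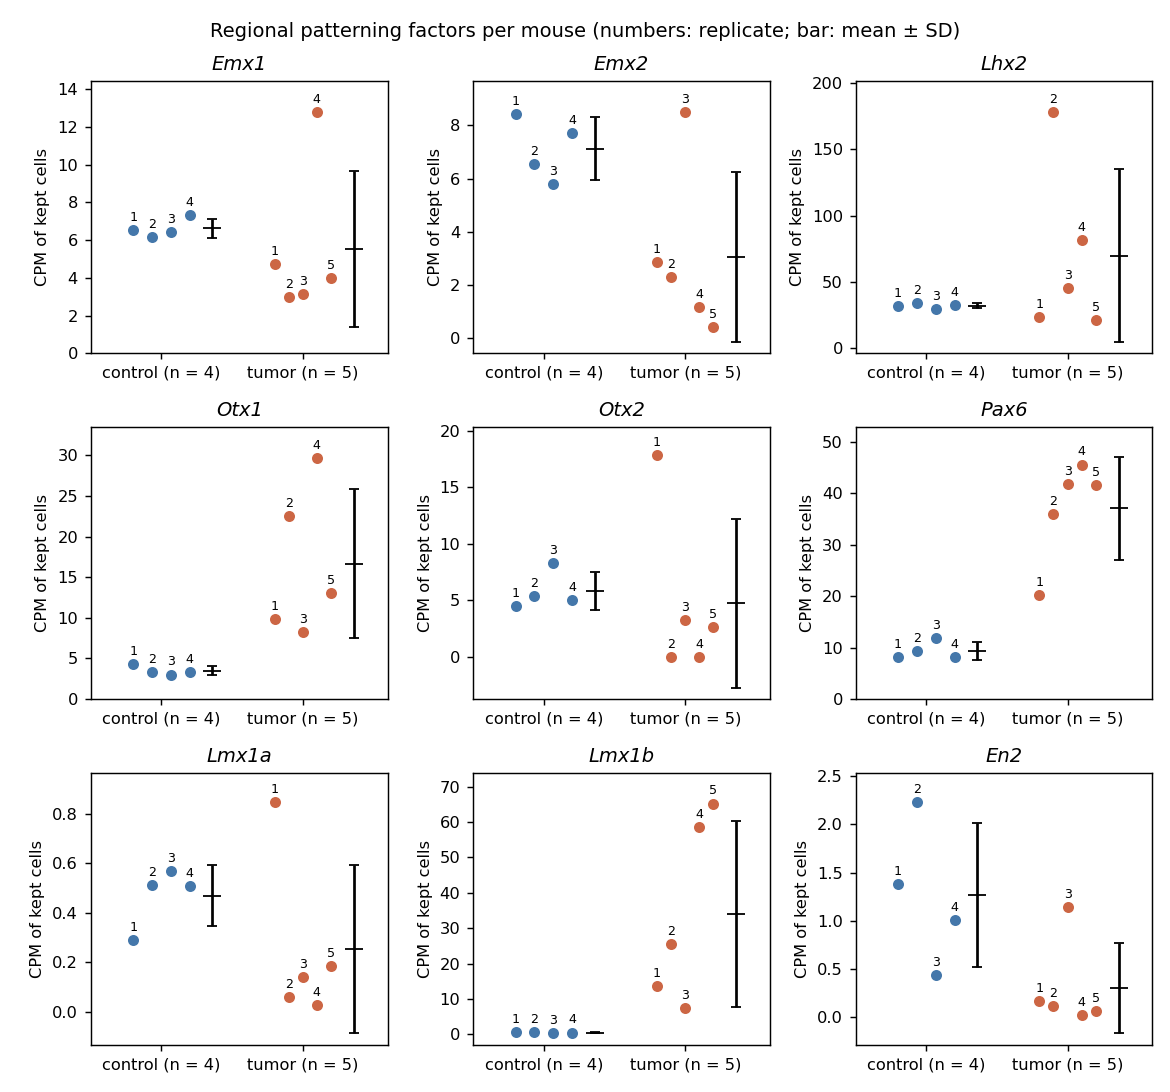
Level of each of the 9 genes per mouse in kept cells (CPM, linear axis of each panel), 4 control mice in blue and 5 tumor mice in orange with their replicate number, and mean ± SD in black. For Otx1, Pax6 and Lmx1b all 5 tumors lie above all 4 controls, and for Emx1, Emx2, Otx2 and Lmx1a a single tumor lies above the controls and the other 4 below. The share of all genes that separate the groups was not counted.

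Pax6, a paired-box homeodomain factor of dorsal forebrain radial glia, stood at 8.14, 9.44, 11.9 and 8.19 CPM in controls and at 20.3, 36, 41.8, 45.6 and 41.6 CPM in tumor replicates 1 to 5. All 5 tumors lay above all 4 controls (log2 fold change 2.26 ± 0.312, adjusted p = 0.000407 in edgeR's test). Otx1, which is expressed in cortical progenitors and deep-layer neurons, stood at 4.36, 3.35, 3.03 and 3.31 CPM in controls and at 9.83, 22.5, 8.24, 29.7 and 13.1 CPM in tumors. Here too the groups did not overlap (2.60 ± 0.494, adjusted p = 0.00179 in edgeR's test). The share of all genes that separate the groups as Lmx1b, Pax6 and Otx1 do was not counted. In a comparison chosen after seeing the data, in which neuron-like cells were left out, the log2 fold changes were 1.36 for Pax6, 1.68 for Otx1 and 6.04 for Lmx1b, and all 3 calls held. Which tumor cells this leaves out depends on cluster names that changed with the resolution.

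Lhx2, a LIM homeodomain factor required for cortical identity, varied widely among tumors. Controls measured 31.4, 34.3, 29.5 and 32.6 CPM, a narrow range, and tumors measured 23.5, 178.1, 45.3, 81.8 and 20.8 CPM. Tumor replicates 1 and 5 lay below every control and the other 3 above. The log2 fold change of 1.50 ± 0.660 did not pass the test (adjusted p = 0.0714 in edgeR's test). It was called without tumor replicate 1 and without tumor replicate 5 (1.75 in each case) and with DESeq2 (1.45), and fell to 0.73 without tumor replicate 2. Microglia-like cells held Lhx2 at 24.1 ± 8.06 CPM in controls (SD, n = 4) and 10 ± 7.45 CPM in tumors (n = 5). The part of free RNA in the control levels was not tested.

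The remaining forebrain genes gave no call. Emx1, a marker of the pallium, stood at 6.54, 6.18, 6.44 and 7.32 CPM in controls and at 4.74, 2.96, 3.13, 12.8 and 3.98 CPM in tumors, with tumor replicate 4 high and the other 4 below every control (0.07 ± 0.485, adjusted p = 0.899 in edgeR's test). Without tumor replicate 4 the log2 fold change was −0.60. Emx2, which acts in caudal cortex and hippocampus, stood at 8.43, 6.55, 5.81 and 7.73 CPM in controls and at 2.88, 2.31, 8.52, 1.17 and 0.435 CPM in tumors, where replicate 3 lay above and the others below the controls (−1.12 ± 0.611, adjusted p = 0.135 in edgeR's test). Emx2 was called lower without tumor replicate 3 (−1.82) and with limma voom (−1.75). Control microglia-like cells held Emx1 at 7.63 ± 5.92 and Emx2 at 8.02 ± 3.77 CPM (SD, n = 4), from 11 and 13 UMIs. In tumor microglia-like cells these were 1.32 ± 1.26 and 0.98 ± 1.48 CPM (n = 5). The part of free RNA in the control levels of both genes was not tested.

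Otx2, the anterior head factor that is also expressed in choroid plexus, stood at 4.50, 5.35, 8.27 and 5.06 CPM in controls. Tumor replicates 1, 3 and 5 had 17.8, 3.27 and 2.67 CPM. Replicates 2 and 4 had 0 UMIs of 16880009 and 37630780, which allows up to 0.178 and 0.0797 CPM for counting error only. So 4 tumors lay below every control, 2 of them with no UMI, and 1 held the highest level of all 9 mice. The log2 fold change of −0.31 ± 1.27 had an adjusted p of 0.841 in edgeR's test. With limma voom it was −3.80 and called.

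En2 and Lmx1a were sparse. En2, a homeodomain factor of the midbrain-hindbrain boundary, had 96 UMIs in all controls (1.38, 2.23, 0.442 and 1.01 CPM) and 13 in all tumors (0.169, 0.118, 1.14, 0.0266 and 0.0621 CPM). Tumor replicate 3 lay within the control range and the other 4 below it (−2.29 ± 0.862, adjusted p = 0.0406 in edgeR's test). This call was lost in 9 of 17 alternatives. Lmx1a, a roof plate determinant, had 35 UMIs in controls (0.291, 0.511, 0.568 and 0.506 CPM) and 11 in tumors (0.847, 0.0592, 0.142, 0.0266 and 0.186 CPM). In an exact two-sided permutation test over all splits of the 9 mice into 5 and 4 p was 0.286, where 0.0159 is the smallest possible. Without tumor replicate 1 the exact permutation p was 0.0286. There all 4 remaining tumors lie below every control, and this is the smallest p possible for 4 against 4 mice.

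The genes were next compared within tumors, between allele-positive cells and the other kept cells of the same mouse. The other cells can include tumor cells in which no allele UMI was captured. In tumor replicate 5, for example, 76.3% of kept cells were progenitor-like and 34% were allele-positive. Lmx1b, Lhx2, Pax6 and Otx1 rose in allele-positive cells, in 5 of 5 tumors each. The share of all genes that were higher in every tumor was not counted. Otx2 and Emx1 did not pass the test, and Emx2, Lmx1a and En2 were below the count filter. This fit, with the mouse as a block and the 3 allele sequences left out, called 33.5% of 14165 genes, 16.2% higher and 17.3% lower, against 4 higher and 0 lower of the 6 genes tested. The median log2 fold change was 1.00 over the 6 genes and 0.0498 over all genes. Without the mouse as a block, Pax6 alone of the 4 passed the test. Allele-positive cells were deeper than other cells, with median UMIs per cell of 2968, 6426, 4231, 7011 and 4570 against 2044, 3882, 2172.5, 5578.5 and 3464 in replicates 1 to 5. In allele-positive cells the cycling list summed to 434.3 to 1646 CPM against 137.0 to 1042 CPM in other cells, and the microglia list to 749.1 to 1559 against 4236 to 12157 CPM, and the part of either in these differences was not tested.

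Lmx1b stood at 37.6, 38.4, 25.8, 67.0 and 81.1 CPM in allele-positive cells of tumor replicates 1 to 5 and at 12.2, 16.7, 5.39, 27.3 and 54.4 CPM in the other cells. Within each tumor the allele-positive cells were higher, by 1.49 to 4.78 times (log2 fold change 1.30 ± 0.208, adjusted p = 0.00168 in edgeR's test). Replicate 5 was the highest tumor in both sets of cells. Microglia-like cells, which should lack the gene, held 4.74, 6.64, 1.57, 10.2 and 19 CPM in the same tumors and 0 UMIs in all controls. Of 1405 microglia-like tumor cells, 89 (6.33%) held an allele UMI.

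The share of cells with an Lmx1b UMI was 12, 20.2, 9.71, 34.7 and 30.6% of allele-positive cells in tumor replicates 1 to 5. In the other cells of these tumors it was 2.67, 6.69, 1.67, 13.5 and 18.3%. Replicate 4 gave 3803 of 6214 allele-positive cells but 1318 of the other cells. Pooled shares thus mix differences between tumors with those between sets. Pooled, the share was 30.9% (exact 95% interval 29.7 to 32.0%, counting error only) in allele-positive cells. It was 8.71% (8.16 to 9.29%) in other cells and 3.56% (2.65 to 4.67%) in microglia-like cells. With each cell thinned to 2000 UMIs, which left out 58, 2017 and 171 shallower cells, the shares were 11.4, 5.71 and 2.27%. The order of the 3 sets was the same in both pooled measures.

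Lhx2 stood at 47.0, 266.2, 111.3, 91.2 and 21.7 CPM in allele-positive cells and at 22.2, 116.8, 37.6, 47.0 and 20.2 CPM in the other cells (1.06 ± 0.195, adjusted p = 0.00344 in edgeR's test). The allele-positive cells of tumor replicate 2 thus held 12.3 times the level of those of replicate 5, in which Lhx2 barely differed between the sets (ratio 1.07). Replicate 5 also had the lowest ratio of the 5 tumors for Otx1 (1.15), Pax6 (1.27) and Lmx1b (1.49). Pax6 differed least among tumors, with 53.2, 47.8, 81.4, 50.8 and 47.7 CPM in allele-positive cells, a highest-to-lowest ratio of 1.71, and 18.4, 27.8, 37.1, 26.3 and 37.5 CPM in other cells (0.95 ± 0.165, adjusted p = 0.00253 in edgeR's test). Otx1 stood at 21.9, 32.4, 17.6, 33.0 and 14.2 CPM against 9.13, 15.7, 7.14, 17.4 and 12.3 CPM (0.94 ± 0.192, adjusted p = 0.00554 in edgeR's test).

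**Figure D2:**
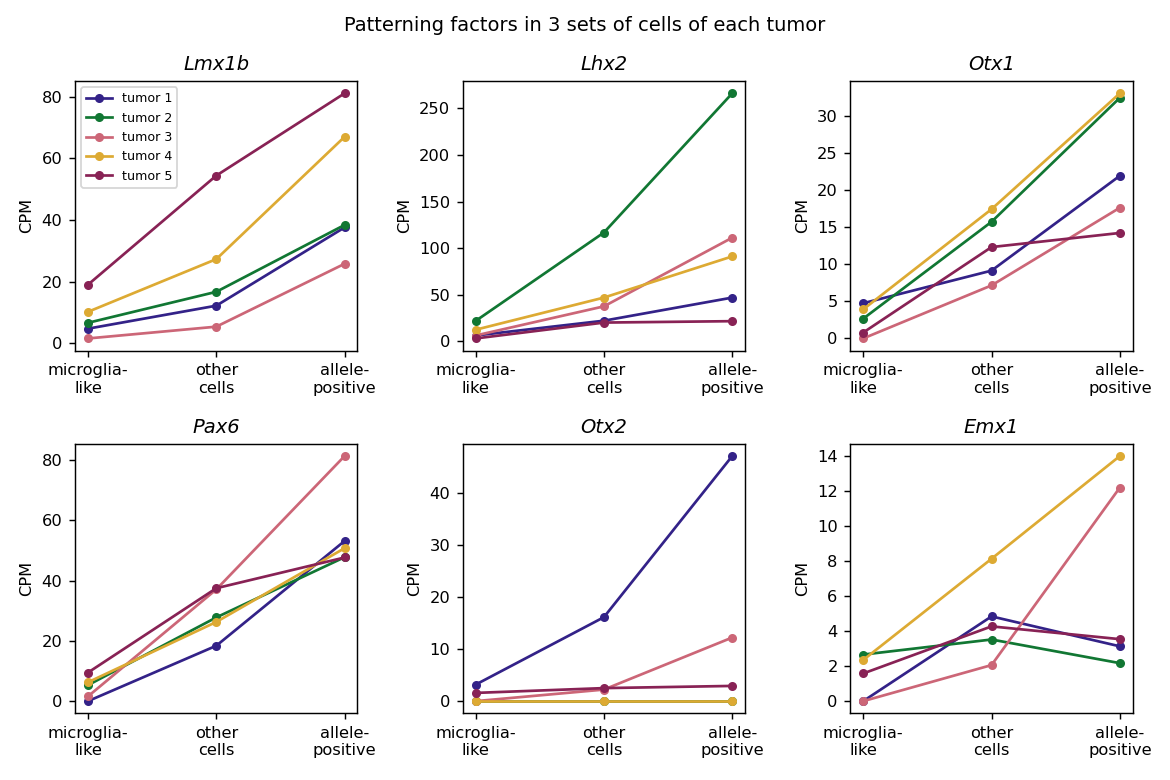
Level of 6 genes in microglia-like, other and allele-positive cells of each of the 5 tumors (CPM, linear axis; lines join the 3 sets of a tumor and are no trend; microglia-like cells are also counted in the other 2 sets). Lmx1b, Lhx2, Otx1 and Pax6 lie highest in the allele-positive cells of every tumor, whereas Otx2 is high in tumor replicate 1 and at 0 in replicates 2 and 4.

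Otx2 was captured in kept cells of 3 of the 5 tumors. Over all deposited barcodes tumor replicate 2 held 3 Otx2 UMIs and replicate 4 held 0. In allele-positive cells it stood at 47.0, 0, 12.2, 0 and 2.92 CPM, from 15, 0, 9, 0 and 19 UMIs, and in other cells at 16.1, 0, 2.22, 0 and 2.50 CPM. Of the 3 tumors with any UMI, all 3 were higher in allele-positive cells (1.34 ± 0.474, adjusted p = 0.0621 in edgeR's test). In tumor replicate 1 an Otx2 UMI was held by 12% (exact 95% interval 5.93 to 21.0%) of 83 allele-positive cells, with a median of 2968 UMIs, and by 0.851% (0.103 to 3.04%) of 235 microglia-like cells, with a median of 2418. Ttr, a choroid plexus marker, was held by 31.3% and 28.1% of the same cells, and the part of free choroid plexus RNA in the Otx2 values was not tested. In tumor replicate 4, 0 of 3803 allele-positive cells held an Otx2 UMI, with an exact 95% upper bound of 0.0970% on cells with a UMI. Emx1 stood at 3.13, 2.17, 12.2, 14 and 3.54 CPM in allele-positive cells and at 4.84, 3.52, 2.06, 8.13 and 4.27 CPM in other cells. It was higher in allele-positive cells of replicates 3 and 4 and lower in the other 3 (0.44 ± 0.400, adjusted p = 0.432 in edgeR's test).

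Emx2 had 0, 10, 11, 40 and 1 UMIs in allele-positive cells, Lmx1a 1, 0, 0, 1 and 1, and En2 0 in every tumor. The En2 value rests on 44110789 UMIs of 6214 allele-positive cells, and 0 UMIs allow up to 0.0680 CPM. Emx2 reached its highest level in the allele-positive cells of tumor replicate 3, at 14.9 CPM, and stood at 1.44, 1.35 and 0.154 CPM in those of replicates 2, 4 and 5.

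**Figure D3:**
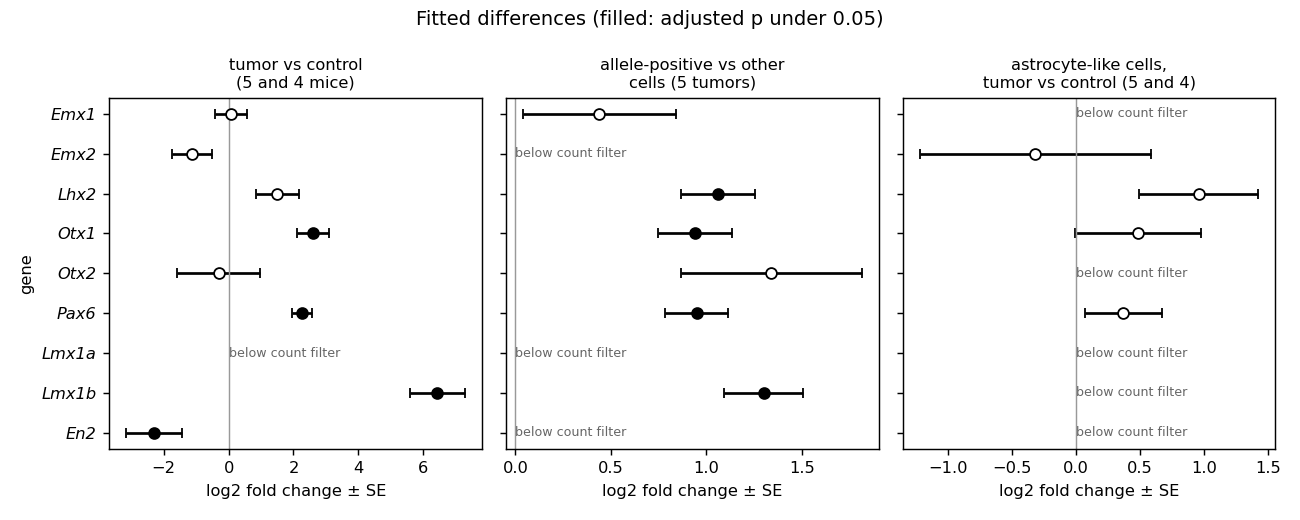
Fitted log2 fold change ± SE of the 9 genes in 3 comparisons, each panel with its own axis; filled points have an adjusted p under 0.05 in edgeR's test over all genes. Lmx1b, Otx1 and Pax6 are called higher in the first 2 comparisons, Lhx2 in the second only, En2 lower in the first, and none in astrocyte-like cells.

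Lmx1b and forebrain genes were captured in the same allele-positive cells. At least 1 UMI of Emx1, Emx2, Lhx2, Otx1 or Pax6 was present in 33.7, 75.3, 65.0, 68.3 and 30.7% of allele-positive cells of replicates 1 to 5. Both Lmx1b and a forebrain gene were captured in 3.61, 16.1, 7.77, 26.3 and 11.5% (3, 159, 8, 1001 and 143 cells). Among cells with an Lmx1b UMI, 30.0, 79.9, 80.0, 75.8 and 37.7% held a forebrain UMI, against 34.2, 74.1, 63.4, 64.3 and 27.6% of cells without. Pooled over tumors, whose shares differ widely, these were 68.5 and 58.2%, and 31.0 and 29.7% after thinning to 2000 UMIs, with 217 cells of 6156 holding both. Within tumors the thinned shares were 0 and 19.7% in replicate 1, 50.6 and 46.1% in replicate 2, 50.0 and 43.2% in replicate 3, 34.7 and 30.3% in replicate 4, and 14 and 13.5% in replicate 5. These are shares of sparse counts and carry no test.

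**Figure D4:**
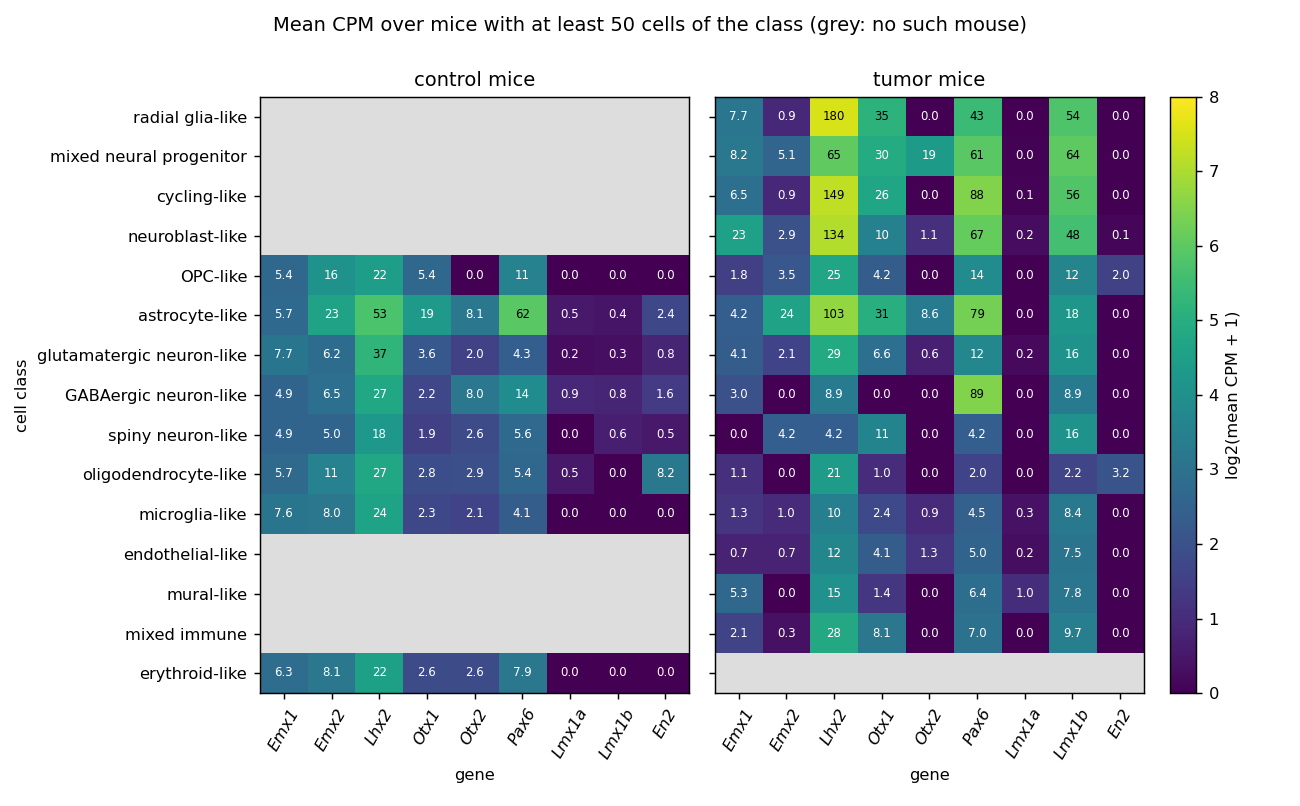
Mean CPM of each gene by cell class, in control mice (left) and tumor mice (right), over mice with at least 50 cells of the class; colour is log2(mean CPM + 1), the printed number is the mean CPM, and grey marks classes with no such mouse. Lmx1b is high in the tumor radial glia-like, mixed neural progenitor, cycling-like and neuroblast-like classes and near 0 in all control classes, whereas Pax6 is high in astrocyte-like cells of both groups.

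By cell class, Lmx1b had its highest means in the radial glia-like, mixed neural progenitor, cycling-like and neuroblast-like classes of tumors. The allele-positive cells fell into different classes in different tumors. Radial glia-like cells made up 2.41, 66.8, 14.6, 66.1 and 0.161% of them in tumor replicates 1 to 5, mixed neural progenitors 45.8, 3.85, 14.6, 0.21 and 61.9%, and astrocyte-like cells 24.1, 0.71, 31.1, 1.55 and 2.1%. It stood at 54.3 ± 23.8 CPM in radial glia-like cells (SD, n = 2 mice), 63.7 ± 28.1 in mixed neural progenitors (n = 4), 56.1 ± 19.4 in cycling-like cells (n = 3) and 47.6 ± 31.4 in neuroblast-like cells (n = 4). These 4 means differed by less than the spread between mice. Oligodendrocyte precursor (OPC)-like cells of tumors had 11.5 ± 13.8 CPM (n = 3) and oligodendrocyte-like cells 2.16 ± 0.153 CPM (n = 2). The highest mean of a control class was 0.789 ± 0.430 CPM, in GABAergic neuron-like cells (n = 4). Classes of this kind are rebuilt from marker lists, and the clusters were made without the 9 genes and the other regional genes. The name mixed neural progenitor did not hold across resolutions. At resolution 2.0 the cluster of that name had 20, 19, 1, 2 and 1603 cells of tumor replicates 1 to 5, against 226, 117, 97, 14 and 1676 at resolution 1.0, and at resolution 0.5 no cluster had it and 2119 cells of tumor replicate 5 lay in a cluster named cycling-like. At resolution 2.0 a cluster led by the muscle genes Tnnc2, Myl1, Mylpf and Acta1, which the marker lists named erythroid-like, held 349, 104, 139, 13 and 64 cells. The mixed progenitor cluster was mostly from tumor replicate 5 (1676 of 2130 cells) and the radial glia-like clusters from replicates 2 and 4, with Vax2 among the leading genes of both and, in 1 of them, also the stress and immune genes Cxcl2, Spp1 and Lcn2.

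Levels within these classes were read per tumor at resolution 1.0. In the cluster named mixed neural progenitor Otx2 stood at 74.2, 0, 0 and 3.26 CPM in tumor replicates 1, 2, 3 and 5, while Lmx1b stood at 72.8, 67.8, 24.1 and 90.1 CPM. Lhx2 stood there at 18.6, 95.5, 125.5 and 20.8 CPM, low in the 2 tumors in which Otx2 was captured in this class. In neuroblast-like cells Emx1 stood at 20.9, 10.0, 58.1 and 1.62 CPM in replicates 2 to 5, highest in replicate 4, and Lhx2 at 327.0, 61.3, 124.1 and 22.7 CPM. At resolution 2.0 Otx2 summed over tumor cells stood at 1.93 CPM in mixed neural progenitors (14 UMIs) and at 32.2 CPM in the erythroid-like class (64 UMIs), so the Otx2 values above do not belong to a stable class. In neuroblast-like cells summed over tumors Emx1 stood at 19 CPM (92 UMIs) at resolution 1.0, 18 CPM at 2.0 and 2.77 CPM (9 UMIs) at 0.5, where 15 cells of tumor replicate 4 were in the class, and Lhx2 at 73.9, 67.5 and 30.5 CPM. With so few tumors no relation between these genes was tested.

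Choroid plexus-like cells carried Otx2 in both groups, at 97.3, 159.6, 216.5 and 138.4 CPM in controls and 183.4 CPM in tumor replicate 1, the only tumor that held such cells (45). They gave 26 of its 105 Otx2 UMIs, and 52 came from its 226 cells in the cluster named mixed neural progenitor at resolution 1.0. Without choroid plexus-like cells the log2 fold change of Otx2 between tumors and controls was −0.13. Lmx1a had 3 of its 5 UMIs in that tumor in choroid plexus-like cells, where Lmx1b had 0. En2 was highest in oligodendrocyte-like cells, at 8.23 ± 3.98 CPM in controls (n = 4) and 3.18 ± 1.30 in tumors (n = 2), and at 0 in microglia-like cells of both groups. That tumor mean rests on 3 UMIs in 230 cells. It leaves out tumor replicate 3, whose 26 oligodendrocyte-like cells held 6 UMIs. Over all 282 such tumor cells En2 had 9 UMIs, or 7.06 CPM.

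Cells called astrocyte-like at Leiden resolution 1.0 were present in all 9 mice, and the groups were compared within this class. The name did not hold at other resolutions for the tumor cells. At resolution 0.5 the cluster led by Lcn2, with 531, 75, 332, 123 and 196 cells of tumor replicates 1 to 5, was named ependymal-like, and only 1, 0, 2, 0 and 1 tumor cells were astrocyte-like. At resolution 2.0 no cell of tumor replicate 4 was astrocyte-like and 124 of its cells were ependymal-like. The values that follow are of the class at resolution 1.0. In tumor replicates 1 to 5, 3.82, 13.2, 9.55, 48.8 and 13.8% of the astrocyte-like cells held an allele UMI. The tumor side of this comparison thus includes allele-positive cells. None of the 4 genes tested passed, where the fit called 31.2% of 8837 genes, 16.6% higher and 14.6% lower. Pax6 stood at 61.6 ± 5.08 CPM in controls (n = 4) and 78.5 ± 40.6 in tumors (n = 5; 0.37 ± 0.304, adjusted p = 0.384 in edgeR's test), and Otx1 at 19.2 ± 7.12 and 31.1 ± 25.4 CPM (0.48 ± 0.493, adjusted p = 0.492 in edgeR's test). Lhx2 stood at 52.6 ± 17.3 and 102.6 ± 68.8 CPM (0.96 ± 0.466, adjusted p = 0.133 in edgeR's test), and was called without tumor replicate 5 (1.25) and with the replicate block (1.19). Emx2 had its highest class mean here in both groups, at 23.2 ± 16.5 and 23.6 ± 31.5 CPM (−0.32 ± 0.905, adjusted p = 0.823 in edgeR's test). Lmx1b was below the filter, with 1 UMI in 665 control astrocyte-like cells and 68 UMIs in 1222 tumor ones (9.64, 6.35, 18.7, 29.2 and 25.7 CPM in replicates 1 to 5), of which the highest value is from the 121 cells of replicate 4 whose class name changed. Summed over tumor cells at resolution 2.0, Lmx1b stood at 18.5 CPM in astrocyte-like and 22.4 CPM in ependymal-like cells. The filter admitted Lmx1b without control replicate 1, 3 or 4 (log2 fold change 4.56 to 4.73) and without control replicate 2, where the remaining controls had 0 UMIs. It was called in each of these. With so few control UMIs it passed the filter on tumor counts, so these calls are no separate support for a difference. It was also called with no filter (4.92). En2 had 0 UMIs in these cells of all 5 tumors and 5 UMIs in those of controls, and was called lower with no filter. The class was formed by different clusters in the groups, the control cluster being led by Atp13a4 and Phkg1 and the tumor cluster by Lcn2, Agt, A2m and Cxcl13.

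Other regional genes were read from a list of 95, of which 60 passed the count filter between tumors and controls. Of these 24 rose and 12 fell, where 32.3% of all genes tested were called higher and 29.3% lower, so the list as a whole was called about as often as all genes. By region, 7 of 32 forebrain genes tested rose and 9 fell, and 4 of 9 midbrain and isthmus genes rose and 1 fell. Of hindbrain and spinal cord genes 2 of 4 rose and 1 fell, and of roof plate and dorsal midline genes 11 of 15 rose and 1 fell. The list held 34, 17, 26 and 18 genes of these regions, and those not tested were below the count filter. Wnt1 had 2 to 5 UMIs per control mouse, Pax2 3 to 14, Gsx1 1 to 2 and Gsx2 1 to 6, so these genes passed that filter on tumor counts. The tested shares are thus not shares of a region's genes. The largest rises were of Wnt1, the isthmus and roof plate ligand (log2 fold change 8.03), Pax2, an isthmus factor (6.11), Gsx2 (5.46) and Gsx1 (4.67), ventral forebrain factors, and Bmp7, a dorsal midline ligand (4.17). Wnt1 stood at 1.02, 75.7, 6.39, 55.2 and 45.0 CPM in tumors and 0.138 to 0.232 CPM in controls, and Pax2 at 20.8, 4.44, 1.85, 9.83 and 71.3 CPM against 0.138 to 0.651 CPM. In tumor replicates 1 to 5 Gsx1 had 4, 0, 41, 52 and 64 UMIs and Gsx2 28, 18, 27, 42 and 438. Among the largest falls were those of Lhx9 (−3.61), Lhx8 (−3.01), Lhx6 (−2.65) and Tbr1 (−2.63), all factors of postmitotic forebrain neurons.

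Within tumors 47 of the 95 were tested, and 16 rose and 3 fell in allele-positive cells, where 16.2% of all genes were called higher and 17.3% lower. Forebrain genes gave 4 rises and 1 fall of 24 tested, and midbrain and isthmus genes 3 rises of 5. Hindbrain and spinal cord genes gave 2 rises and 1 fall of 4, and roof plate and dorsal midline genes 7 rises and 1 fall of 14. The other listed genes of each region were below the count filter. Lhx1 (1.81), Barhl2 (1.80), Wnt1 (1.70), Pax2 (1.55) and Six3 (1.54) rose most, and Rspo1 (−2.58), Pou3f1 (−0.99) and Meis2 (−0.90) fell. In astrocyte-like cells, where 16.6% of all genes were called higher and 14.6% lower, 19 were tested, of which Bmp6 (3.25), Zic4 (3.05), Zic5 (1.56) and Six3 (1.28) rose and Tbr1 (−3.61), Pou3f1 (−2.57), Bcl11b (−2.41) and Meis2 (−1.32) fell.

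Likeness over the 72 sums separated the genes. Pax6 was most like Egfr (r = 0.88), the epidermal growth factor receptor, Btbd17 (0.86) and Slc15a2 (0.84). Otx1 was most like Arhgef26, Mlc1 and Nr2e1 (0.81 each). Lhx2 had Igfbp2 and Rcn2 (0.70 each) and B9d1 (0.69), Emx2 had Slc13a5 (0.75), Lypd6 and Ranbp3l (0.71 each), and Emx1 had Efna5 (0.65), Tac2 (0.63) and Klhdc2 (0.60). Otx2 had Maob (0.63), Gm973 (0.61) and 4930581F22Rik (0.59). Among the 7 of the 9 genes with enough UMIs for this measure, Lmx1a and En2 being left out, the highest values were 0.70 for Otx1 with Pax6, 0.69 for Lhx2 with Pax6 and 0.67 for Lhx2 with Otx1, and Lmx1b had 0.60 with Pax6 and −0.32 with Emx2.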

How the data were processed

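Single cells of 4 control and 5 tumor mice were measured. The authors deposited UMI counts per gene and barcode, raw and not normalised, on mm10 with the fusion, luciferase and IRES sequences added. The matrix headers name Cell Ranger 6.1.2, and the submitters' processing notes name Cell Ranger 7 and Scanpy 1.8.2. In control replicate 4 the matrix has 80887 columns and its barcode list 80865 entries, so its columns were not matched to barcodes. From each deposited count matrix the 10000 barcodes with most UMIs were taken, those with 200 to 6000 genes kept, the high mitochondrial component of a 2-component mixture removed, and doublets removed by score. Kept-cell barcodes shared between libraries numbered 1 to 9 in each of 28 pairs. Cells were clustered in Scanpy 1.11.5 (2105 variable genes without regional genes, 50 components, 15 neighbours, Leiden resolution 1.0, 32 clusters) and named from marker lists.

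Counts were summed per mouse and tested with edgeR 4.0.16 in R 4.3.3 (filterByExpr, TMM, quasi-likelihood, adjusted p under 0.05), with the mouse as a block between cells of the same tumors. Lmx1a was tested by exact permutation. The steps were tested on simulated data. Alternatives used DESeq2 1.42.0, limma 3.58.1, other cell filters, no filter on counts, and each mouse left out. Exact 95% intervals and floors of 3 counts cover counting error only. Named genes were the 9, the 5 largest called rises and falls among the other regional genes in each comparison, and the 3 genes most like each of those with at least 500 UMIs. Some genes under this rule are not reported here. Members and lists were chosen with earlier results of these data known.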

Additional observations from a re-analysis of the deposited data

Results flagged for a closer look

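In 11 of 35 groups of 5 tumors or 4 controls, 1 mouse lay far from the others by Dixon's test, which chance gives in about 1 in 20 groups. Tumor replicate 1 stood apart for Otx2, at 17.8 CPM over kept cells, 47.0 CPM in allele-positive cells and 16.1 CPM in other cells, and for Lmx1a, at 0.847 CPM over kept cells and 3.13 CPM in allele-positive cells, the latter from 1 UMI. Tumor replicate 2 stood apart for Lhx2 in other cells, at 116.8 CPM. Tumor replicate 3 stood apart for Emx2 (14.9 CPM) and Pax6 (81.4 CPM) in allele-positive cells, of which it held 103, and for En2 at 1.14 CPM over kept cells and 1.27 CPM in other cells, from 8 UMIs. Tumor replicate 4 stood apart for Emx1, at 12.8 CPM over kept cells.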

How the results depend on the processing

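Between tumors and controls Lmx1b (5.74 to 6.72 on the log2 scale), Otx1 (1.68 to 2.81) and Pax6 (1.36 to 2.50) kept their direction and their call in 19 of 19 alternatives, and En2 kept its direction in 17 and its call in 8 of 17. Genes called numbered 10844, and 7119 without neuron-like cells, an alternative chosen after seeing the data. Emx1 changed sign with the replicate block (−0.20) and without tumor replicate 4 (−0.60), and ranged up to 0.26 with a mouse left out. Otx2 changed sign without tumor replicate 2 (0.04) and tumor replicate 4 (0.05), and ranged from −1.89 with a mouse left out. The Lmx1a difference of −0.217 CPM ranged from −0.365 CPM, without tumor replicate 1, to −0.16 CPM. Nothing in the labels says that replicate numbers pair the mice. Same-numbered mice correlated at 0.003 to 0.048 in their deviations, which cannot exclude a pairing because the tumors differed widely among themselves. The replicate block gave 8786 called genes.

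In allele-positive cells 4749 genes were called, 639 with no replicate block, 2846 with at least 2 allele UMIs, and 2671 to 3968 with a tumor left out, lowest without tumor replicate 2. Of the 9 genes 4 were called, and 1 with no replicate block. Otx2, not called in the main fit, was called in 2 of 13 alternatives, and its log2 fold change ranged from 0.32 to 1.87. In astrocyte-like cells 0 were called, 2 with no filter on low counts (Lmx1b and En2), 1 with the replicate block (Lhx2) and 0 to 1 with a mouse left out. Emx2 changed sign there without control replicate 1 (0.10), tumor replicate 4 (0.05) and tumor replicate 5 (0.03). The mean share of allele-positive cells holding both Lmx1b and a forebrain gene was 13.1%, and 2.47% after thinning. The causes of these changes were not tested. Depth limits En2 and Lmx1a, with 13 and 11 UMIs in all tumors. The mitochondrial filter kept 5121 and 3645 cells of tumor replicates 4 and 5, against 9177 and 9138 with a mitochondrial share under 10%, where 4 genes were again called between tumors and controls and 4 in allele-positive cells.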

Other observations

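Vax2 was named by its likeness to Lmx1b and its values per mouse were then read. It stood at 7.12, 51.1, 5.68, 67.5 and 59.6 CPM in tumor replicates 1 to 5. Wnt1 was low in tumor replicate 1 (1.02 CPM), whose Lmx1b level was 13.6 CPM, and Pax2 was high there (20.8 CPM) compared with tumor replicates 2 to 4 (1.85 to 9.83 CPM).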
